A study of Homo sapiens with 6 samples.

Results

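The p53 arrest and feedback genes are 7 transcriptional targets of p53 that were chosen by name: CDKN1A, MDM2, PPM1D, CCNG1, ZMAT3, BTG2 and TP53INP1. Of these, 6 stood among the 6831 genes of the authors' deposited comparison, and PPM1D did not. The comparison was made in MOLM-13 cells, a human leukaemia line grown from acute myeloid disease and labelled as wild type in every sample. Cells received 50 nM DEG-35 for 24 h (3 libraries) or the solvent DMSO for 24 h (3 libraries). DEG-35 is described in the study as degrading the transcription factor IKZF2 and CK1A, a kinase encoded by CSNK1A1. Separate cultures are not stated in the labels for the libraries of either group, so p-values measure only the spread between these libraries, which may be technical.

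In textbook outline, p53 is a transcription factor that is kept low by the ubiquitin ligase MDM2. Casein kinase 1 alpha restrains p53 together with MDM2 and its relative MDM4. When p53 is active it switches on genes that halt the cell cycle, and also genes whose products shut p53 down again. Arrest genes of this kind are CDKN1A, which encodes the cyclin-dependent kinase inhibitor p21, and BTG2, which binds the CCR4-NOT deadenylase. Feedback genes are MDM2 itself, PPM1D, which encodes the phosphatase WIP1, and CCNG1, whose product cyclin G1 brings the phosphatase PP2A to MDM2. ZMAT3 encodes a zinc-finger protein that binds RNA, and TP53INP1 encodes a stress protein that acts in p53 phosphorylation and in autophagy.

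The values are the authors' own: each gene that passed has a fold change on the log2 scale with its p-value, raw and adjusted. Values per library were not analysed here, so no spread within a group can be shown, and the depth of the libraries is unknown. Errors are standard errors (SE) implied by each fold change and its two-sided p-value, and intervals are 95% intervals from that SE. The table's header leaves the numerator unnamed. Fold changes are taken here as DEG-35 over DMSO, and all directions would turn round under the other order. The adjusted p-values imply that 15064 genes were tested, of which 45.3% had an adjusted p below 0.05 in either direction, 21.4% as higher and 24% as lower. The table holds no expression levels, so the cell type could not be checked by the level of its markers. Of 9 myeloid marker genes 7 were listed (77.8%, against 45.3% of all genes tested), 6 as higher and 1 as lower around a median of 0.44. Their part in the members' values was not tested. CSF1R stood at 1.57 ± 0.147, ITGAM at 1.47 ± 0.0956 and MPO, the lower one, at -0.36 ± 0.0965 in the authors' deposited table. Of 9 markers of other cells PECAM1 alone was listed, at 0.38 ± 0.102 in the authors' deposited table.

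The 6 listed arrest and feedback genes were all higher with DEG-35, and none was lower. The share higher, 6 of 7, stands against 21.4% of all genes tested. Their median log2 fold change was 2.00, against 0.50 for all 3218 higher genes of the table. At least 1 on the log2 scale was reached by 5 of the 6, and by 19.8% of all higher genes. These genes had been named as p53 targets with earlier results of these data known, so the count describes them and is no independent evidence of their direction.

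TP53INP1 showed the largest rise. It was 9.68-fold higher in DEG-35 cells in the authors' deposited table (log2 fold change 3.27 ± 0.118, adjusted p = 4.30e-167). Its interval, 3.04 to 3.51 on the log2 scale, lay above that of every other listed member. Among the 2605 higher genes whose implied SE did not exceed 0.2 it ranked first by log2 fold change, and among all 3218 higher genes it ranked 29. The genes above it there were thus less precisely measured.

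The arrest genes followed. BTG2, an antiproliferative gene, was 4.70-fold higher in DEG-35 cells in the authors' deposited table (2.23 ± 0.0928, interval 2.05 to 2.42, adjusted p = 6.28e-126). CDKN1A was 3.76-fold higher there, at 1.91 ± 0.0579 on the log2 scale, the smallest SE among the members (interval 1.80 to 2.02). By p-value CDKN1A ranked 2 among the 3218 higher genes and 21 in the whole table, while by log2 fold change it ranked 146 among the higher genes. The RNA-binding gene ZMAT3 stood between these genes at 4.24-fold higher in the authors' deposited table (2.08 ± 0.0739, interval 1.94 to 2.23, adjusted p = 1.06e-172).

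The feedback genes differed among themselves. MDM2 was 3.33-fold higher in DEG-35 cells in the authors' deposited table, at 1.74 ± 0.0631 on the log2 scale (interval 1.61 to 1.86). CCNG1 had the smallest listed rise, 1.81-fold, at 0.85 ± 0.0628 (interval 0.73 to 0.98, adjusted p = 1.62e-40) in the authors' deposited table. Its precision was like that of MDM2, whose SE was 0.0631. The third feedback gene, PPM1D, was not listed, which means that it did not pass or was not tested. At the precision of the listed members (SE 0.0579 to 0.118), a gene would have been listed from an absolute log2 fold change of 0.13 to 0.27 on. The precision for PPM1D itself is unknown, so this gives no limit for it.

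In order of log2 fold change the group ran TP53INP1, BTG2, ZMAT3, CDKN1A, MDM2 and CCNG1. Of the 5 steps between neighbours in this order, 3 joined genes with overlapping intervals: BTG2 and ZMAT3, ZMAT3 and CDKN1A, and CDKN1A and MDM2. The steps that did not overlap set TP53INP1 apart at the top, by 1.04 over BTG2, and CCNG1 apart at the bottom, by 0.88 below MDM2. The fold change of TP53INP1 was 5.36 times that of CCNG1. These are differences between changes, not between levels, and no test between genes was run. All log2 fold changes were also shifted up or down by 0.3, since the scaling factors are unknown. Every listed member stayed higher, which was fixed in advance as each exceeds 0.3, and CCNG1 then stood at 1.15 or 0.55.

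**Figure D1:**
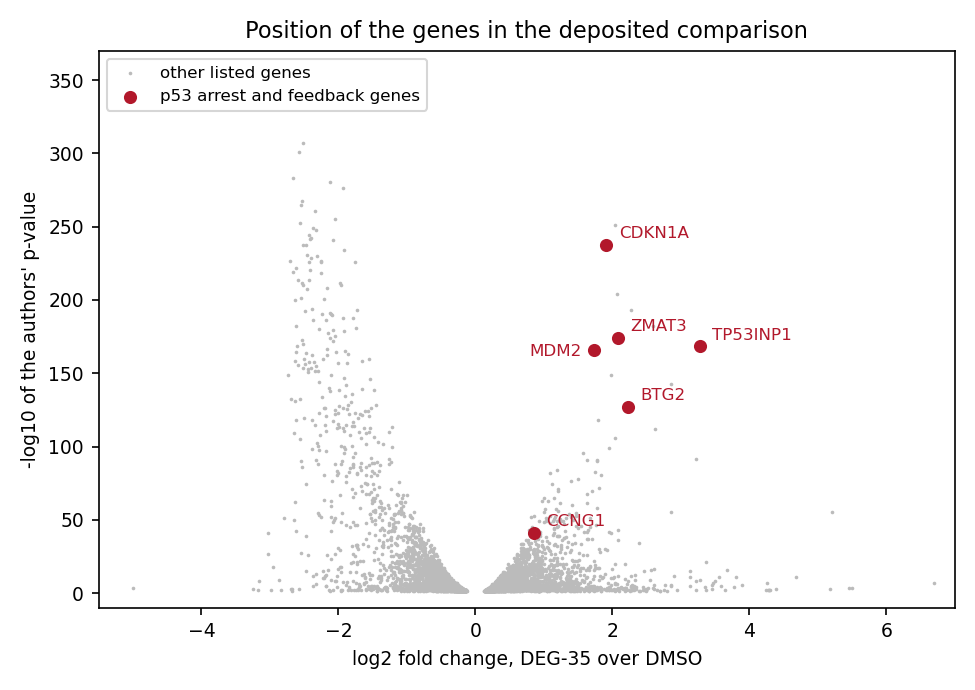
Log2 fold change (DEG-35 over DMSO, x axis) against -log10 of the authors' p-value (y axis) for the listed genes, without the 3 genes that have a p-value of 0. The 6 listed arrest and feedback genes, in red, all lie on the higher side. Among the 6, CDKN1A has the smallest p-value and TP53INP1 lies farthest to the right, at 3.27 on the x axis. CCNG1 has the largest p-value of the 6 and the smallest log2 fold change, 0.85.

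Reads of some members may mix with those of overlapping genes, as no source used here says whether counting used the strand. Overlaps were taken between whole gene spans, and whether exons overlap was not checked. In GENCODE release 29, MDM2 overlaps CPM, a carboxypeptidase gene on the opposite strand, which was itself higher at 0.73 ± 0.0706 in the authors' deposited table. It also overlaps 3 noncoding genes or pseudogenes, none of them listed. TP53INP1 overlaps NDUFAF6, and CDKN1A overlaps the noncoding DINOL, both on the opposite strand and both not listed. PPM1D overlaps the small nuclear RNA gene RNU6-623P on the opposite strand, and neither was listed. CCNG1, ZMAT3 and BTG2 overlap no annotated gene.

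Promoter sequences were read for the members, PPM1D included, because the 6 listed ones all rose and because p53 acts by binding DNA. RefSeq promoter windows (GRCh38.p14, 250 bases before a transcript start to 50 after it) were matched by symbol for 6 of the 7 members, 11 windows in all. No window was matched for TP53INP1, the member with the largest rise. The p53 consensus, a pair of 10-base half-sites with no spacer, reads alike on both strands, and its closest match was sought in each window. MDM2 has 4 windows around a pair of start regions. The upstream start region held no match with fewer than 5 mismatches to the 20-base consensus, a number that 70.5% of all 35116 windows reach or beat. In the windows of the downstream start region the closest match had 2 mismatches, which 0.649% of all windows reach or beat. A second match, with 3 mismatches, lay 18 bases further on, and 5.2% of all windows hold a match with at most 3. Both stand in capitals in the stretch from base -250 to base -16 before that start (chr12:68808767-68809001, + strand). The stretch was ended at base -16 so that no annotated MDM2 exon reaches it. Neither match overlaps an annotated MDM2 exon. The stretch lies within an intron of 7 of the 34 MDM2 transcripts in GENCODE release 29.
MDM2 downstream start region: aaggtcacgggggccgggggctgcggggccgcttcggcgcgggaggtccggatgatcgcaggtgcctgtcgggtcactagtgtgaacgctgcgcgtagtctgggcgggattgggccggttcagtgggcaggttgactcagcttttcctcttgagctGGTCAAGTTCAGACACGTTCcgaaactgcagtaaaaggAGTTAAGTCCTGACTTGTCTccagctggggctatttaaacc

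The closest match in the best window of each member that had one shows how far the other promoters stand from this. TP53INP1 is missing here. In the following 20-base runs, capitals mark bases that fit the consensus and small letters those that do not. Of equal matches within a window the one nearest its start is shown, and of the CCNG1 windows, which tied, the more upstream one is used. The MDM2 run is at chr12:68808923-68808942 (+ strand), the BTG2 run at chr1:203305505-203305524 (+), the ZMAT3 run at chr3:179071873-179071892 (-), the PPM1D run at chr17:60599994-60600013 (+), the CDKN1A run at chr6:36678556-36678575 (+) and the CCNG1 run at chr5:163437519-163437538 (+).
MDM2: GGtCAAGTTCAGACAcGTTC
BTG2: GGGaAAGTCCGGGCAgagCC
ZMAT3: GGGCcTGCTCcGcCAAGCaC
PPM1D: AAGCAAaCTaGGAgATGCgC
CDKN1A: cGGCcAGgCTcAGCTgGCTC
CCNG1: AAtCAgcggCGAAaATGCCC
BTG2, ZMAT3 and PPM1D had 4 mismatches, as few as in 26.0% of all windows. The other ZMAT3 window had no match with fewer than 6, as few as in 97.4%. Members with several windows had more places for a close match, while the shares are per window. CDKN1A had 5 and CCNG1 had 6, as few as in 70.5% and 97.4% of windows. PPM1D, which was not listed, thus had as close a match in its window as BTG2 and ZMAT3, which were more than 4-fold higher. A match describes letters only, and its absence says only that these letters are not in this window. The MDM2 value covers the whole gene, so transcripts from its start regions were not told apart.

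**Figure D2:**
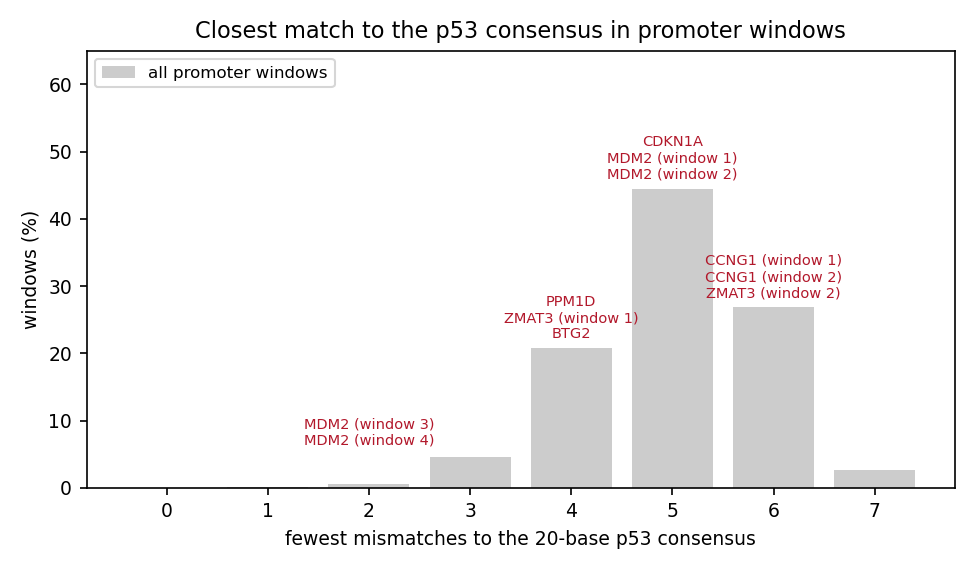
Share of all 35116 promoter windows (bars, in percent) by the fewest mismatches to the 20-base p53 consensus, with the windows of the arrest and feedback genes named above their bar. MDM2 windows 3 and 4, at the downstream start region, stand at 2 mismatches, and all other named windows stand at 4 to 6.

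Paralogs of the members did not share one direction. Of 27 paralogs 15 were listed (55.6%, against 45.3% of all genes tested). Of the 27, 9 were higher (against 21.4%) and 6 lower (against 24%) around a median of 0.25. With all values shifted up or down by 0.3, 10 or 6 were higher. Here and below, any single value smaller than 0.3 in size changes sign under one of these shifts. CDKN1B, which encodes the related inhibitor p27, was lower at -0.42 ± 0.0753 in the authors' deposited table, on the other side of zero from CDKN1A. MDM4, the partner of MDM2, was higher by 0.26 ± 0.0683 in the authors' deposited table. CCNG2 moved more than its relative CCNG1: the authors' deposited table gives 1.23 ± 0.0930, with an interval of 1.04 to 1.41 that does not overlap that of CCNG1. CCNI stood at 0.17 ± 0.0621 in the authors' deposited table. ZMAT1 was higher at 1.14 ± 0.156 and TP53INP2, an autophagy gene, at 0.71 ± 0.125 in the authors' deposited table, both with intervals below those of ZMAT3 and TP53INP1.

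The family of BTG2 was split. TOB1 was higher at 0.90 ± 0.0804 in the authors' deposited table, BTG3 was lower at -0.52 ± 0.0959 and TOB2 lower at -0.21 ± 0.0734. BTG1 and BTG4 were not listed. The phosphatase family of PPM1D was split too. PPM1E at -0.64 ± 0.102, PPM1G at -0.50 ± 0.0568 and ILKAP at -0.51 ± 0.0881 were lower in the authors' deposited table. PPM1M at 0.40 ± 0.0888, PPM1N at 1.37 ± 0.440 and PPM1K at 0.25 ± 0.108 were higher in the authors' deposited table.

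**Figure D3:**
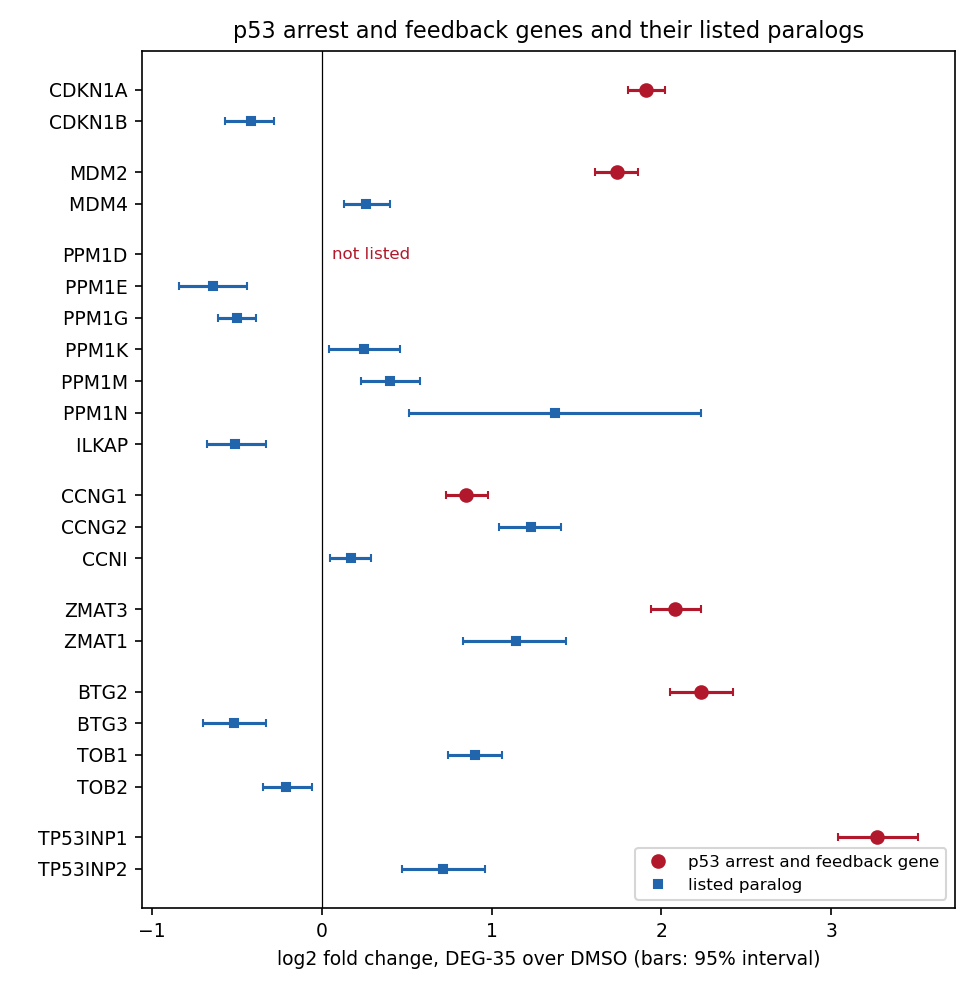
Log2 fold change (DEG-35 over DMSO) of the arrest and feedback genes (red circles) and of their listed paralogs (blue squares), with bars for the 95% interval from the implied SE. Each listed member except CCNG1 has a larger fold change than all its listed paralogs, and PPM1D is not listed.

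The genes that the members' products act on or with were counted from lists by role. Beside a median of -0.19 over all listed genes, genes of the cyclin-dependent kinase machinery at the G1/S transition, where p21 acts, had a median of -1.06. Of 36 such genes 28 were listed (77.8%, against 45.3% of all genes tested). Of the 36, 23 were lower (against 24%) and 5 higher (against 21.4%), or 3 higher with a downward shift of 0.3. Cyclin A2 (CCNA2) at -2.37 ± 0.0702, the phosphatase gene CDC25A at -2.33 ± 0.0877 and the transcription factor gene E2F2 at -2.62 ± 0.113 had the smallest adjusted p-values in the authors' deposited table. TFDP1 at -1.21 ± 0.0536, CDK2 at -1.63 ± 0.0719 and PCNA, a clamp of replication that p21 binds, at -1.26 ± 0.0564 came next in the authors' deposited table. The 5 higher genes, named after their values were seen, had values in the authors' deposited table of 0.89 (CCND1), 0.67 (CCND2), 0.44 (CCNA1), 0.17 (CCND3) and 0.16 (CDK6), so all 3 cyclin D genes were among them.

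Genes known to be repressed through p21 and the DREAM complex, a repressor of cell cycle genes, were all listed and all lower. Of all genes tested, 24% were lower. Like the other lists, this one was chosen with earlier results of these data known, so its count is no independent evidence of direction. Whether p21 or DREAM lowered these genes was not tested. The 20 genes had a median log2 fold change of -2.32, between -2.67 and -1.64. None could turn with a shift of 0.3 either way, as each exceeds 0.3 in size. TOP2A stood at -2.51, with a p-value of 0 and thus no implied SE, CDK1 at -2.67 ± 0.0740 and BUB1 at -2.32 ± 0.0690 in the authors' deposited table. Other targets of p53 were mostly higher too. Of 39 genes, chosen in the same way, 30 were listed (76.9%, against 45.3% of all genes tested). Of the 39, 29 were higher (against 21.4%) around a median of 1.08, and 28 were higher with a downward shift of 0.3. TRIM22, SESN1 and CYFIP2 had the smallest adjusted p-values, at 2.05 ± 0.0604, 2.07 ± 0.0679 and 2.27 ± 0.0766 in the authors' deposited table, and PMAIP1, a cell death gene, was the lower one at -0.83 ± 0.0992.

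Regulators of p53 showed smaller values. Of 23 genes 12 were listed (52.2%, against 45.3% of all genes tested), a share near that of all genes. Of the 23, 5 were higher (against 21.4%) and 7 lower (against 24%) around a median of -0.24. With a shift up or down by 0.3, 8 or 2 were higher. CSNK1D and CSNK1E were not listed. CSNK1A1 was higher at 0.18 ± 0.0613 in the authors' deposited table. This is an RNA value, so it does not show the level of the protein that DEG-35 is described as degrading. The mitotic kinase gene AURKA at -1.53 ± 0.0747, the kinase gene DYRK2 at -0.61 ± 0.0780 and HDAC1 at -0.34 ± 0.0662 were lower in the authors' deposited table. RPL11, whose product can bind MDM2, was higher at 0.32 ± 0.0602, the deacetylase gene SIRT1 lower at -0.37 ± 0.0773 and the deubiquitinase gene USP7, which acts on MDM2 and p53, lower at -0.29 ± 0.0635 in the authors' deposited table. Although PPM1D was not listed, 10 of 13 genes of damage kinases and PPM1D substrates were (76.9%, against 45.3% of all genes tested). Of the 13, 3 were higher (against 21.4%) and 7 lower (against 24%) around a median of -0.62. With a downward shift of 0.3, 1 was higher. Among them CHEK1, a checkpoint kinase, stood at -2.29 ± 0.0872, the repair glycosylase gene UNG at -1.53 ± 0.0677, XPC, a repair gene and p53 target, at 1.13 ± 0.0758 and PRKDC at -0.61 ± 0.0553 in the authors' deposited table. MRE11A at -0.65 ± 0.0739 and the histone gene H2AFX at -1.23 ± 0.150 followed in the authors' deposited table.

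Partners of BTG2, TP53INP1 and CCNG1 were listed about as often as genes in general (55.6%, 41.2% and 45.5% of their genes in this order, against 45.3% of all genes tested). The shares of these and all other lists count every symbol, tested or not. They therefore compare only roughly with the share of tested genes. Of 18 CCR4-NOT and poly(A) tail genes, through which BTG2 acts on mRNA, 10 were listed, 4 as higher and 6 as lower around a median of -0.16, or 7 higher with an upward shift of 0.3. TOB1, named above as a paralog of BTG2, had the highest value of this list at 0.90 ± 0.0804 in the authors' deposited table. CNOT9, listed as RQCD1, stood at -0.60 ± 0.0723, CNOT10 at -0.33 ± 0.0744, PABPC1 at 0.38 ± 0.0546 and PAN3 at 0.46 ± 0.0699 in the authors' deposited table. CNOT3 was lower in the authors' deposited table at -0.31 ± 0.0965. Of 17 autophagy genes around TP53INP1 7 were listed, 4 as higher and 3 as lower around a median of 0.27, or 6 or 3 higher with a shift up or down by 0.3. GABARAPL1, an ATG8-family gene, at 1.11 ± 0.149 and WIPI1 at 0.97 ± 0.202 led the higher ones, before TP53INP2, with BECN1 at 0.27 ± 0.0702 in the authors' deposited table. ATG5 at -0.21 ± 0.0711 and GABARAP at -0.19 ± 0.0707 were lower in the authors' deposited table. The other lower one, ULK1, is outside the 6 of smallest adjusted p but had the lowest value, -0.55 ± 0.229. Of 11 genes of PP2A, the phosphatase that cyclin G1 binds, and GAK, 5 were listed, 1 as higher and 4 as lower around a median of -0.25. Those lower in the authors' deposited table were PPP2R1B at -0.59 ± 0.0772, PPP2CA at -0.38 ± 0.0643, PTPA, listed as PPP2R4, at -0.25 ± 0.0667 and PPP2R5E at -0.19 ± 0.0746. PPP2R5B was higher at 0.51 ± 0.182 in the authors' deposited table, and 3 of the 5 would be higher with an upward shift of 0.3.

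**Figure D4:**
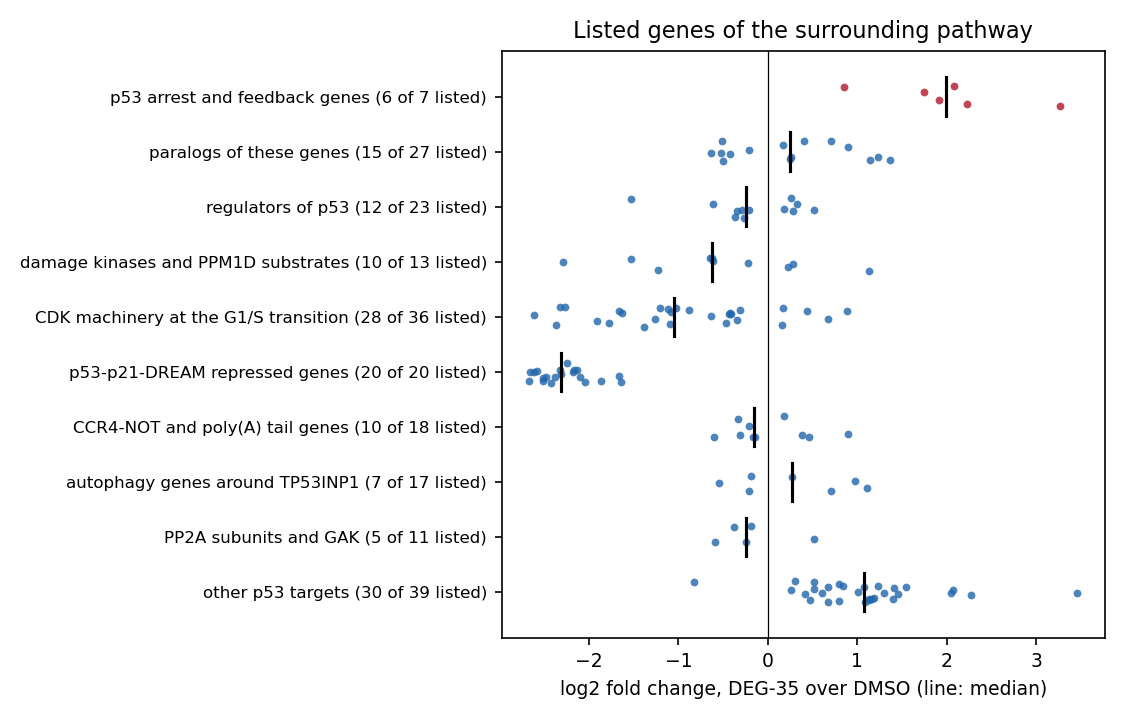
Log2 fold change (DEG-35 over DMSO, x axis) of the listed genes of each list (points, spread vertically for legibility), with the median as a black line and the number listed in the label. The arrest and feedback genes, in red, lie between 0.85 and 3.27, the DREAM-repressed genes between -2.67 and -1.64.

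The genes beside the arrest and feedback genes on the chromosome were looked up as well. Of 28 protein-coding neighbours, 2 on each side of each member in RefSeq, 9 were listed (32.1%, against 45.3% of all genes tested). Of the 28, 3 were higher (10.7%, against 21.4% of all genes tested) and 6 lower (21.4%, against 24%). The 19 that were not listed either did not pass or were not tested, and 4 of the 28 flank PPM1D, which was not listed itself. CCNG1 and TP53INP1 each had a cell cycle gene that fell among these neighbours. HMMR, a spindle gene beside CCNG1 with NUDCD2 between them, stood at -2.43 ± 0.0906, and CCNE2, the cyclin E2 gene beside TP53INP1 with NDUFAF6 between them, at -1.78 ± 0.0868 in the authors' deposited table. The nuclear pore gene NUP107, near MDM2, was lower at -1.08 ± 0.0680, and the splicing factor gene SRSF3, next to CDKN1A, at -0.39 ± 0.0583 in the authors' deposited table. CPSF6 near MDM2 at -0.22 ± 0.0576 and PLEKHF2 next to TP53INP1 at -0.35 ± 0.0852 were the other lower ones in the authors' deposited table. Higher were CPM, which overlaps MDM2, CHI3L1, near BTG2, at 0.82 ± 0.0580, and BCAS3, next to the unlisted PPM1D, at 0.65 ± 0.105 in the authors' deposited table. All 4 neighbours of ZMAT3, PIK3CA among them, were not listed.

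**Figure D5:**
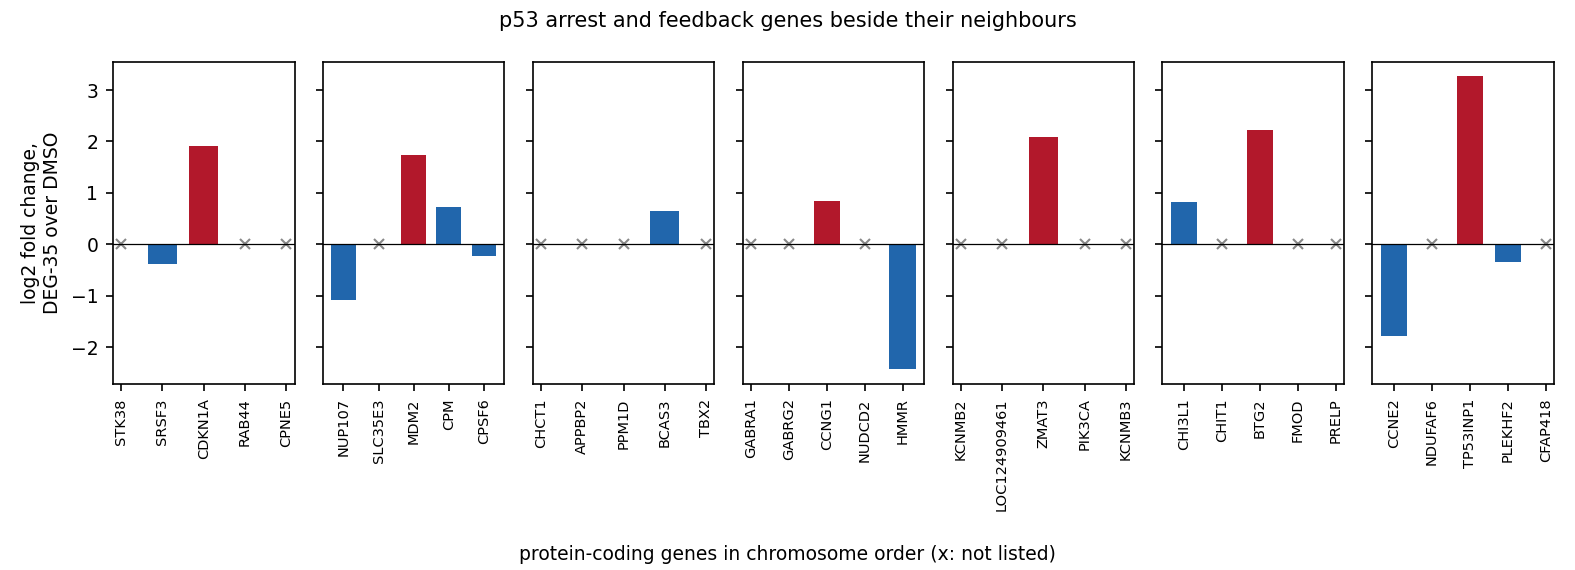
Log2 fold change (DEG-35 over DMSO) of each arrest and feedback gene (red bars) and of its protein-coding neighbours in chromosome order, 2 on each side (blue bars), with a cross for a gene that is not listed. HMMR beside CCNG1 and CCNE2 beside TP53INP1, at -2.43 and -1.78, point the other way from the member.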

How the data were processed

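MOLM-13 RNA was taken with a column kit and sequenced as SMARTer mRNA libraries, per the labels' protocols. The submitters' processing notes list STAR, featureCounts and DESeq2 and the build hg19, with neither versions nor order, and whether strand was used in counting is not stated there. A single table deposited by the authors gives, per the file headers, each gene's log2 fold change, p-value and adjusted p-value. Every adjusted p in the deposited table lies below 0.05. Multiplying the adjusted p by the gene's rank and dividing by the p-value gave 15064 to within 0.041% for the 2789 genes with p over 1e-04. A Benjamini-Hochberg adjustment over 15064 genes gives this value, with no rank missing.

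The implied SE is the size of the log2 fold change over the standard normal deviate of its p-value, taken as two-sided. It assumes a Wald test, which is not stated, and does not exist for the 3 genes whose p-value is 0. The formula was tried on simulated p-values that were themselves made with a Wald test, so its success was fixed in advance. This trial does not show that the deposited p-values come from such a test. No test was run anew. Samples were grouped by their titles. The members and the 11 gene lists (215 symbols, 5 found by a RefSeq synonym) were chosen with earlier results of these data known. Named by rule are all members, all listed paralogs, CSNK1A1, CSNK1D, CSNK1E and MDM4, up to 6 genes of smallest adjusted p for the lists of partners, up to 3 plus exceptions for the others, and neighbours and genes of nearest change. A further gene of this rule is not reported here. Alternatives were an adjusted p of 0.01, an absolute log2 fold change of 1, Bonferroni adjustment, an implied SE of at most 0.2, shifts by 0.3, exact symbols and unshared genes. Gene order and promoters came from RefSeq (GRCh38.p14), overlaps from GENCODE release 29. No coordinates were compared with hg19. Values were computed in Python 3.11.15 with SciPy 1.17.1, NumPy 2.4.6 and pandas 2.3.3, and drawn with Matplotlib 3.10.9.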

Additional observations from a re-analysis of the deposited data

How the results depend on the processing

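No paired analysis was possible because the deposited table holds no values per library, and for the same reason leaving out libraries was not run. All 6 listed members stayed past the threshold at an adjusted p of 0.01, with Bonferroni adjustment and with an implied SE of at most 0.2, and 5 of them, without CCNG1, when a log2 fold change of 1 or more in size was required. At that size 1251 genes of the table remained in place of 6831, with 3 paralogs, 1 regulator of p53, 4 damage kinases and PPM1D substrates, 15 G1/S genes, 0 CCR4-NOT and poly(A) tail genes, 1 autophagy gene, 0 PP2A genes and 17 other p53 targets. Bonferroni adjustment over 15064 tests left 3154 genes, with 9 paralogs, 5 regulators, 4 CCR4-NOT, 3 autophagy and 2 PP2A genes, and an adjusted p of 0.01 left 6 CCR4-NOT and 3 PP2A genes. Fewer pass by construction, as these settings are stricter. Shifted up by 0.3, 8 regulators, 7 CCR4-NOT and 3 PP2A genes were higher. Shifted down by 0.3, 2 regulators, 1 damage kinase or substrate gene and 3 G1/S genes were higher. The shift moves the median of all genes by 0.3 and lets no gene enter or leave the table, so these counts are not those that other scaling factors would give. Exact symbols and lists without shared genes kept each count within 1.5 times its value.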

Other observations

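Genes of most similar change were sought among the 4142 other genes whose implied SE did not exceed 0.1, by distance from the members' median of 2.00 in this 1 comparison. The nearest 5 were ALDH1A3, FAT1, DHRS9, TRIM22 and SESN1, with log2 fold changes between 1.95 and 2.07 in the authors' deposited table.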
